A study of Mus musculus with 16 samples.

Results

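Thyroid hormone acts in the nucleus through receptors that bind DNA with a retinoid X receptor partner and hand the signal to coactivators. Acetylation of histone H3 at lysine 27 (H3K27ac), a mark of active promoters and enhancers, was followed here at 10 genes of that machinery in mouse liver. The genes were the thyroid hormone receptors Thra and Thrb, the partner receptors Rxra and Rxrb, the p160 coactivators Ncoa1, Ncoa2 and Ncoa3, the Mediator subunit Med1, and the acetyltransferases Crebbp and Ep300. A region of the deposited count table was taken as a member when its midpoint lay inside one of these genes, or when it lay in no gene and one of them was the nearest protein-coding gene within 50 kb. This gave 112 of 52645 regions: 48 at Rxra, 30 at Thrb, 12 at Ncoa2, 10 at Ncoa3, 3 each at Thra and Ep300, 2 each at Med1 and Crebbp, and 1 each at Rxrb and Ncoa1. All 112 passed the filter on low counts. The rule uses gene names and positions and no measured value, though the list of genes was drawn up with earlier results of these data known.

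The study used mice of a C57BL/6J strain background, as labelled, that were either NCoR1 knockout (KO) or wild type (WT). NCoR1 is a corepressor that unliganded thyroid hormone receptors recruit. From 6 weeks of age and for 3 weeks, mice ate either a low-iodine diet with 0.15% propylthiouracil (PTU/LID), which blocks thyroid hormone synthesis, or standard chow, and livers were taken on day 21. The 4 groups were KO on PTU/LID, KO on chow, WT on PTU/LID and WT on chow, with 3 H3K27ac libraries each. Within each group the libraries are called a, b and c, in ascending order of the numbers in their titles, and values per library are given in that order. The sources used here do not give the deleted part of NCoR1, the cells that lost it or the sex of the mice. They also do not say whether every library comes from its own animal; the p-values then describe only how these libraries spread, which may be technical.

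In the textbook model, thyroid hormone receptors occupy their response elements with and without hormone. Without hormone they hold a corepressor complex built on NCoR1, which carries the deacetylase HDAC3; hormone binding exchanges it for p160 proteins, which bring in CBP (Crebbp) and p300 (Ep300), the enzymes that acetylate H3K27. MED1 contacts the liganded receptor and links it to the Mediator complex and RNA polymerase II. THRB is the main thyroid hormone receptor of hepatocytes, and RXRA is the main retinoid X receptor there and pairs with many other nuclear receptors.

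Library totals ran from 2965505 to 7416187 counts, and regions on the mitochondrial chromosome (chrM) took 0.717% to 17.25% of them. The share was 2.27% to 17.25% in 7 libraries (KO PTU/LID a, all of KO chow, WT PTU/LID a, and WT chow a and b) and 0.717% to 1.08% in the other 5. The targeted gene cannot check the labels here, since acetylation at Ncor1 does not report its deleted part: its 6 regions summed to 46.4 to 58.6 CPM in KO on PTU/LID, 44.6 to 62.9 in KO on chow, 49.1 to 61.8 in WT on PTU/LID and 43.9 to 61.1 in WT on chow. CPM are counts per 1000000 counts after scaling of the libraries. All 6 hepatocyte markers had regions, with a summed level of 3314 to 3428 CPM in KO on PTU/LID, 2568 to 2858 in KO on chow, 2213 to 3352 in WT on PTU/LID and 2395 to 2965 in WT on chow. In whole liver, fewer cells of a type and less acetylation per cell cannot be told apart.

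The RefSeq table of transcript starts (build GRCm38.p6, the assembly of mm10) lists 10 starts for 7 of the 10 genes, and acetylated regions overlapped the window from 250 bases before to 50 after 6 of these starts. Thrb, Rxra and Rxrb have a pair of listed starts each. For Thrb and Rxra the window of the upstream, CpG-rich start was overlapped by acetylated regions while that of the downstream, CpG-poor start was not. Rxrb went the other way: the window of its upstream start (37 CpG) was not overlapped, and that of its downstream start (47 CpG) was. The 4 windows of Thrb and Rxra are shown to let their contrast be read in the letters. Crebbp follows, whose window is as CpG-rich as those of the acetylated starts. They are printed 5′ to 3′ on the strand of the gene. Capitals mark AGGTCA (the core motif of thyroid hormone and retinoid X receptors), GGGCGG (GC box), CCAAT and TATAAA, each searched on both strands.
Thrb, first listed start, chr14:17660710-17661009 (+ strand): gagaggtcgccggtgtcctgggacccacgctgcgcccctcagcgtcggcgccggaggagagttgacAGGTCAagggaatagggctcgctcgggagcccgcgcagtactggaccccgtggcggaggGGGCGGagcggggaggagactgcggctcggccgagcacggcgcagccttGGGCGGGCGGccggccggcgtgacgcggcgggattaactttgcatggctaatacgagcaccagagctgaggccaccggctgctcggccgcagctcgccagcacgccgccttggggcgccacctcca
Thrb, second listed start, chr14:17981394-17981693 (+ strand): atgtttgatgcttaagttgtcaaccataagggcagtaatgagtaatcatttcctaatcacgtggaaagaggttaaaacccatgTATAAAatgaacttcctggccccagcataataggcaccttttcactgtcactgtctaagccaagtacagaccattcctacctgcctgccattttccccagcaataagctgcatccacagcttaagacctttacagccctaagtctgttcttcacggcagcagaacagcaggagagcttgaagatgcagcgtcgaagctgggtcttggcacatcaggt
Rxra, first listed start, chr2:27676951-27677250 (+ strand): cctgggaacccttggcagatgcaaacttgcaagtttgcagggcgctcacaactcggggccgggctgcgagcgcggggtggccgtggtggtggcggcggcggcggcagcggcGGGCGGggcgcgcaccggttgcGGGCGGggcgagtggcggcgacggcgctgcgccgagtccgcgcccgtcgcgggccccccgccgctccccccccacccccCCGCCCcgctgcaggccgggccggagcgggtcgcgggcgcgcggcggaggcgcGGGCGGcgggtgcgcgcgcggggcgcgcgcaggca
Rxra, second listed start, chr2:27709042-27709341 (+ strand): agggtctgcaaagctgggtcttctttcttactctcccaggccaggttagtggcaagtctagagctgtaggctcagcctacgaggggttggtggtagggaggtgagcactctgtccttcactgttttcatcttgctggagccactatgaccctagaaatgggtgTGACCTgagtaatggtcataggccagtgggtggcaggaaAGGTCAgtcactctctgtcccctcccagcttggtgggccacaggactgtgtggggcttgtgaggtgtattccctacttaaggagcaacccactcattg
Crebbp, listed start, chr16:4213355-4213654 (- strand): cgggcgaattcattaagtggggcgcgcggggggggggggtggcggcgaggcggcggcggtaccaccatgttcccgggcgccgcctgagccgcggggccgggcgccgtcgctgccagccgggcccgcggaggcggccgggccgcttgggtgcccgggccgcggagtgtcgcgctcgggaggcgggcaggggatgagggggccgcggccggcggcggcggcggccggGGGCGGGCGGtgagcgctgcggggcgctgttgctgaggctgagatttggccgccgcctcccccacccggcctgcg

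The first Thrb window holds 37 CpG dinucleotides, 3 GC boxes and 1 AGGTCA, against 4 CpG, no GC box and 1 TATAAA in the second. The first is overlapped by Thrb regions 1 and 2; the nearest region to the second start ends 58289 bp away. The first Rxra window holds 55 CpG and 4 GC boxes and is overlapped by region 3, which ends 163 bp from the start, whereas the second holds 1 CpG and 2 copies of AGGTCA, and the nearest region edge is 1910 bp away. The Crebbp window holds 49 CpG and 2 GC boxes, yet no region overlapped it, and the nearest region edge was 685 bp from the start. The windows of Ncoa1 (49 CpG), Rxrb (37 and 47), Ep300 (30) and Med1 (22) were all well above the median of 7 CpG over the 32544 distinct windows of the table. AGGTCA occurred in 16.2% of those windows, GGGCGG in 35.9%, CCAAT in 37.4% and TATAAA in 13.6%. No member window held the direct repeat of 2 AGGTCA copies spaced by 4 bases that thyroid hormone receptors prefer, which only 5 of the 32544 windows did; these letters say nothing about binding outside the windows.

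For gene levels, counts were summed over the regions of each gene. Acetylated regions covered 33.6 kb at Rxra and 21.5 kb at Thrb, against at most 7.39 kb at each of the other 8 genes, and none of the 10 differed between groups at an adjusted p under 0.05. Thra, the receptor form that prevails in heart and brain, had 3 regions over 1.23 kb. Its level was 21.7, 23.8 and 21.1 CPM in KO on PTU/LID, 17.9, 18.5 and 27.3 CPM in KO on chow, 23.2, 23.2 and 22.3 CPM in WT on PTU/LID, and 24.1, 20.4 and 20.2 CPM in WT on chow. The 4 ranges overlap, and KO chow library c is the highest of all 12. Thrb had 30 regions over 21.5 kb of its 381 kb gene. Its level was 648, 618 and 569.5 CPM in KO on PTU/LID, 594, 631 and 604 CPM in KO on chow, 605, 528 and 559 CPM in WT on PTU/LID, and 615, 634 and 568 CPM in WT on chow. The group means lay between 564 and 612 CPM, with every range overlapping its neighbour. Per kilobase of acetylated region the level was 27.9 CPM at Thrb and 17.9 CPM at Thra, against a median of 24.4 CPM per kb over 11586 genes.

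The 33.6 kb of Rxra regions equal 38.6% of its 86.9 kb gene; 44 of the 48 regions lay inside the gene and 4 outside it. Its level was 977, 928 and 858 CPM in KO on PTU/LID, 848, 875 and 948 CPM in KO on chow, 853.5, 1030 and 1069 CPM in WT on PTU/LID, and 956, 1032 and 1167 CPM in WT on chow. The WT chow libraries all lay above the KO chow libraries, while groups next to each other in order of mean overlapped. The share of all genes with such a gap between groups was not counted. Rxrb, the broadly expressed partner receptor, had 1 region that overlapped the second of its listed starts, with 9.17 ± 1.22 CPM in KO on PTU/LID, 9.73 ± 2.59 in KO on chow, 9.90 ± 0.385 in WT on PTU/LID and 10.2 ± 0.374 in WT on chow (SD, n = 3). Per kilobase, Rxra stood at 28.7 CPM and Rxrb at 20.7 CPM.

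Among the p160 coactivators, which bind liganded receptors directly, the level per kilobase was 25.3 CPM at Ncoa3 (10 regions), 22.0 CPM at Ncoa2 (12 regions) and 19.8 CPM at Ncoa1, whose single region lies at its start. Ncoa2 was 105, 110.8 and 104.5 CPM in KO on PTU/LID, 124.5, 116.7 and 127 CPM in KO on chow, 91.2, 96.1 and 108 CPM in WT on PTU/LID, and 92.9, 108.8 and 111 CPM in WT on chow. All 3 KO chow libraries were above the other 9 libraries, a gap whose share over all genes was not counted. Ncoa3 was 164, 212 and 179 CPM in KO on PTU/LID, 202, 190.2 and 165 CPM in KO on chow, 169.6, 183.5 and 175.5 CPM in WT on PTU/LID, and 217, 190.7 and 193 CPM in WT on chow, with overlapping ranges throughout. Ncoa1 spread more than any group difference, from 5.24 to 13.7 CPM within WT on chow alone.

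Of the cofactors that follow the p160 proteins, Ep300 had the densest mark of all 10 genes, 42.1 CPM per kb, a value that 94.7% of the genes did not exceed. Summed over its regions it stood at 92.2 ± 8.25 CPM in KO on PTU/LID, 96.05 ± 8.72 in KO on chow, 103 ± 17.99 in WT on PTU/LID and 97.7 ± 13.6 in WT on chow (SD, n = 3). Its paralog Crebbp had 11.4 ± 0.845 CPM in KO on PTU/LID, 9.96 ± 1.55 in KO on chow, 9.89 ± 2.39 in WT on PTU/LID and 10.8 ± 0.876 in WT on chow. Those counts came from 2 regions of 222 and 276 bp, at 21.1 CPM per kb. Med1 had 25.6 ± 1.38 CPM in KO on PTU/LID, 26.0 ± 1.33 in KO on chow, 27.04 ± 2.48 in WT on PTU/LID and 30.8 ± 4.20 in WT on chow, and 19.8 CPM per kb. In each of the 3 genes, all groups next to each other in order of mean overlapped. At Med1 the WT chow libraries (27.05 to 35.35 CPM) nevertheless all lay above the KO libraries of both diets (24.02 to 26.88 CPM). How many of all genes have such a gap was not counted.

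**Figure D1:**
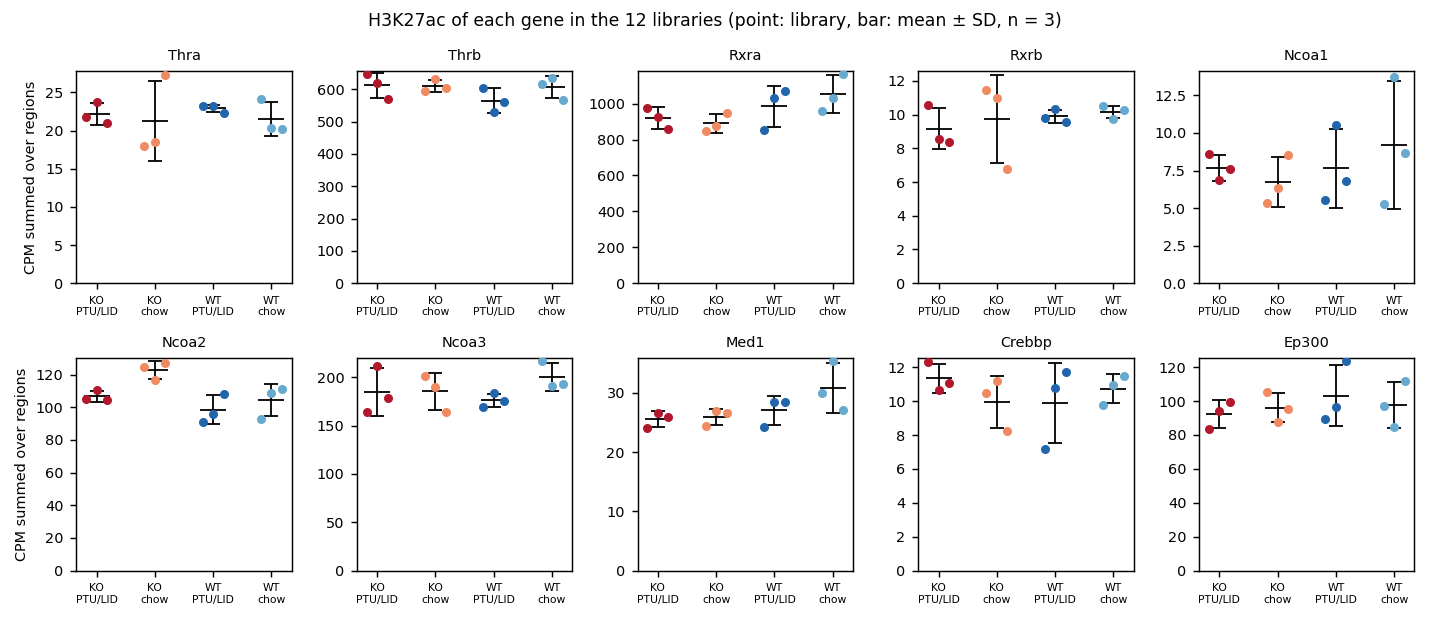
H3K27ac summed over the regions of each gene (CPM, linear axes from 0) in the 12 libraries, grouped from left to right as KO PTU/LID, KO chow, WT PTU/LID and WT chow; points are libraries and bars the mean ± SD of 3. The Ncoa2 panel shows KO chow (116.7 to 127 CPM) above the other 9 libraries, and the Rxra panel shows KO chow (848 to 948 CPM) below WT chow (956 to 1167 CPM). Neither gene passed after adjustment, and the share of all genes with such gaps was not counted.

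The diet comparison asked whether loss of thyroid hormone changes acetylation at its own receptors and coactivators, and the genotype comparison whether loss of the corepressor does. Tests were edgeR's quasi-likelihood test over the whole table with Benjamini-Hochberg adjustment. For KO against WT on chow, 0 of 10 genes passed while 4.13% of all genes did, and on PTU/LID 0 of 10 against 6.60%. For PTU/LID against chow, 0 of 10 passed in KO (7.45% of all genes) and 0 of 10 in WT (7.61%). The same held for KO against WT averaged over diets (11.7% of all genes), for PTU/LID against chow averaged over genotypes (15.8%) and for the interaction of diet and genotype (0.414%). DESeq2 also called 0 of 10 in each of the 7 contrasts. At an unadjusted p under 0.05, 2 genes appeared in KO against WT on chow and the same 2 in the average over diets, and none in the other 5 contrasts. They were Ncoa2, with a log2 fold change of 0.23 ± 0.11 on chow (SE; adjusted p = 0.249) and 0.17 ± 0.079 averaged (adjusted p = 0.159), and Rxra, with -0.24 ± 0.11 on chow (adjusted p = 0.203) and -0.17 ± 0.075 averaged (adjusted p = 0.148).

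The intervals show what size of change these libraries could still hide. For Thrb the 95% interval of the log2 fold change for PTU/LID against chow was -0.19 to 0.20 in KO and -0.30 to 0.097 in WT, and for KO against WT it was -0.19 to 0.21 on chow and -0.082 to 0.32 on PTU/LID. For Ep300 the 4 intervals lay between -0.44 and 0.36. The low-count genes were less well bounded: the interval for Ncoa1 in KO against WT on chow ran from -1.09 to 0.20, and that for Rxrb in KO against WT on PTU/LID from -0.63 to 0.37.

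**Figure D2:**
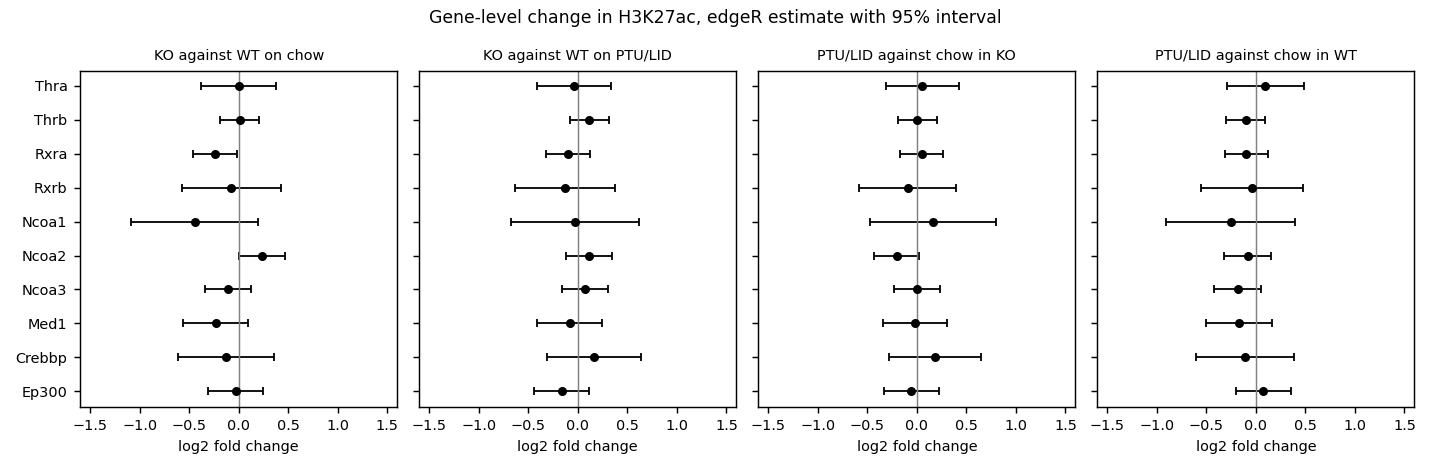
Gene-level log2 fold change of H3K27ac (x axes) for the 10 genes (rows) in 4 contrasts, as edgeR estimates with 95% intervals. Most intervals cross 0; on chow, the interval of Rxra lies below 0 (-0.46 to -0.022) and that of Ncoa2 above it (0.0023 to 0.46), and neither passed after adjustment.

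Single regions passed at Rxra, Thrb and Ncoa2. In the genotype contrasts 8 of the 9 calls were Rxra regions lower in KO; in the diet contrasts the 5 calls were Thrb and Ncoa2 regions lower on PTU/LID. For KO against WT averaged over diets, 6 of 112 passed, 1 higher and 5 lower, while 8.04% of all regions passed, 5.57% higher and 2.47% lower. For KO against WT on chow, 3 of 112 passed, all lower (all regions: 2.43%, lower 0.823%), and on PTU/LID 0 of 112 (3.86%; 6 at an unadjusted p under 0.05). For PTU/LID against chow averaged over genotypes, 4 of 112 passed, all lower (all regions: 11.3%, lower 5.50%). In KO the diet contrast gave 1 lower region (all regions: 6.21%, lower 2.94%), and in WT it gave 0 (3.70%; 15 at an unadjusted p under 0.05). The interaction gave 0 of 112 (0.230%; 8 at an unadjusted p under 0.05). By DESeq2, 4 member regions passed in KO against WT averaged over diets, 3 on chow and 2 in the averaged diet contrast. Of all 52645 regions, 3738, 1206 and 5326 passed in these contrasts. In the other 4 contrasts DESeq2 called 0 member regions, while 189 to 2819 of all regions passed. Up to 47 member regions had no adjusted p by DESeq2. The 14 calls fell on 11 regions, 6 of Rxra, 3 of Thrb and 2 of Ncoa2. No region of the other 7 genes passed in any contrast. The called regions were picked by these tests, so gaps between their groups, described below, are not separate evidence. The share of all regions with such a gap was not counted.

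At Rxra, 5 regions were lower in KO than in WT averaged over diets, and most of the others had negative values that did not pass, while the largest regions around the first start stayed near 0. The 5 that passed, all inside the gene, were region 16 (chr2:27693802-27694153, mm10), region 6 (chr2:27683449-27683842), region 34 (chr2:27744259-27745193), region 37 (chr2:27748334-27748631) and region 38 (chr2:27748683-27749074). Region 16, which lies 16.8 kb past the first listed start, had 4.09, 3.17 and 4.67 CPM in KO on PTU/LID, 5.63, 3.54 and 4.58 CPM in KO on chow, 8.37, 7.11 and 6.78 CPM in WT on PTU/LID, and 9.19, 7.73 and 8.76 CPM in WT on chow. All 6 KO libraries were below all 6 WT libraries. Its log2 fold change was -0.89 ± 0.21 (SE, adjusted p = 0.00458), and it passed without any 1 of the 12 libraries (adjusted p 0.00443 to 0.0230). It also passed with RLE scaling factors, without the filter on low counts, without chrM regions, with either term for chrM share and by DESeq2. Within the 7 libraries of higher chrM share alone, which hold only library a of each PTU/LID group, its log2 fold change was -0.95. The region holds only 16 to 53 counts a library.

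The other 4 were called less firmly. Region 38 had 3.33 to 6.35 CPM in the 6 KO libraries and 3.88 to 10.2 CPM in the 6 WT libraries (log2 fold change -0.77 ± 0.22, adjusted p = 0.0242). Region 37, its neighbour, had 2.36 to 4.86 CPM in KO and 3.49 to 6.87 CPM in WT (-0.75 ± 0.23, adjusted p = 0.0392). Region 34 had 10.35 to 21.99 CPM in KO and 18.02 to 22.09 CPM in WT (-0.53 ± 0.16, adjusted p = 0.0366), and KO PTU/LID library a at 21.99 CPM was the sole KO library within the WT range. Region 6 had 4.58 to 9.72 CPM in KO and 5.95 to 10.98 CPM in WT (-0.64 ± 0.21, adjusted p = 0.0480). The KO and WT ranges overlapped in these 4, and each lost its call without any of 7 to 10 of the 12 libraries. All 4 calls were also lost with a term for the widest gap in chrM share (adjusted p 0.0544 to 0.0706). Those of regions 6 and 37 were lost by DESeq2 as well.

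On chow alone, 3 Rxra regions passed. Region 37 had 2.36, 2.79 and 2.90 CPM in KO and 6.02, 6.07 and 6.78 CPM in WT (-1.23 ± 0.33, adjusted p = 0.0374). Region 38 had 4.54, 3.72 and 3.67 CPM in KO and 6.33, 10.2 and 9.75 CPM in WT (-1.16 ± 0.31, adjusted p = 0.0374). Region 26 (chr2:27733621-27734039) had 3.81, 5.02 and 4.28 CPM in KO and 10.8, 10.2 and 7.27 CPM in WT (-1.08 ± 0.30, adjusted p = 0.0452). The KO and WT chow libraries did not overlap in any of the 3, but the regions were picked by this same contrast. Each call was lost without any 1 of the 3 KO chow libraries and without any of 2 to 6 other libraries. With a term for the widest gap in chrM share each was lost too (adjusted p 0.0781 to 0.110). The call of region 38 was also lost with a term for the next gap.

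**Figure D3:**
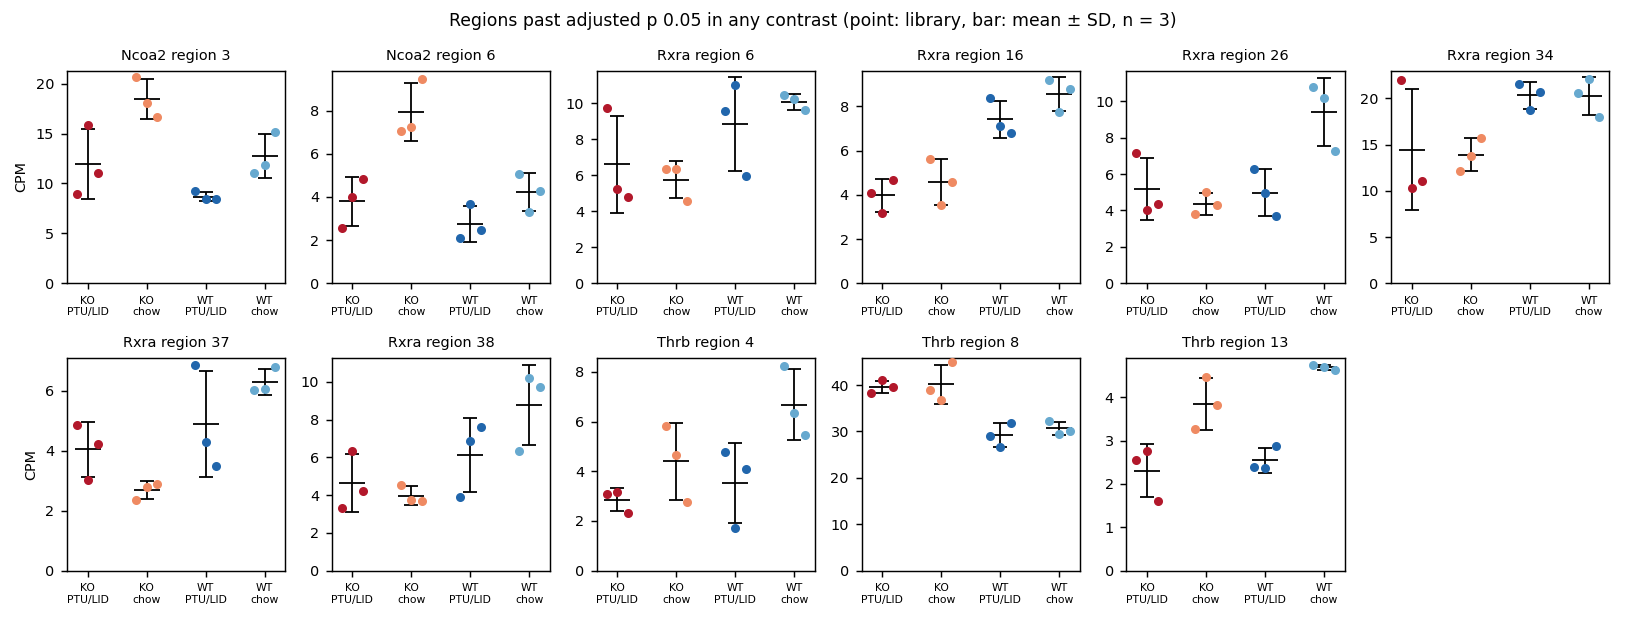
CPM (linear axes from 0) of the 11 regions that passed in any contrast, by library, in the order KO PTU/LID, KO chow, WT PTU/LID and WT chow; bars are the mean ± SD of 3. In Rxra region 16 and Thrb region 8 the 6 KO libraries stand apart from the 6 WT libraries, at 3.17 to 5.63 against 6.78 to 9.19 CPM and at 36.8 to 44.9 against 26.7 to 32.3 CPM.

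Over all 48 Rxra regions, 44 had a negative log2 fold change in KO against WT averaged over diets (91.7%, against 52.0% of all regions), with a median of -0.35 against -0.014 over all regions. On chow 44 of 48 were negative (median -0.52) and on PTU/LID 38 of 48 (median -0.28); in the diet contrasts 28 of 48 were negative in KO (median -0.080) and 40 of 48 in WT (median -0.33). The regions of 1 gene share its surroundings and are not independent. The largest was region 4 (chr2:27677522-27682283, 4762 bp), just past the first listed start, with 278, 312.5 and 294.5 CPM in KO on PTU/LID, 255.5, 262.5 and 294 CPM in KO on chow, 209, 347.5 and 383 CPM in WT on PTU/LID, and 254, 258 and 376 CPM in WT on chow. Its log2 fold change was -0.11 ± 0.13 for KO against WT (adjusted p = 0.656). Region 3 (chr2:27674663-27677038), which reaches the printed window of the first start, had 0.063 ± 0.12 (adjusted p = 0.806).

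Short regions had lower values in KO across the whole table, and the Rxra median lay below the table's in each class of length. Among regions of up to 500 bp the median log2 fold change for KO against WT averaged over diets was -0.38 over 31 Rxra regions and -0.10 over all 27931; above 500 and up to 1000 bp it was -0.34 over 11 and 0.019 over all 14728; above 1000 bp it was -0.096 over 6 and 0.12 over all 9947. The 16 short Thrb regions had a median of -0.18 and the 8 of the middle class 0.081. These classes were set after the values were seen, and no test was made of them.

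**Figure D4:**
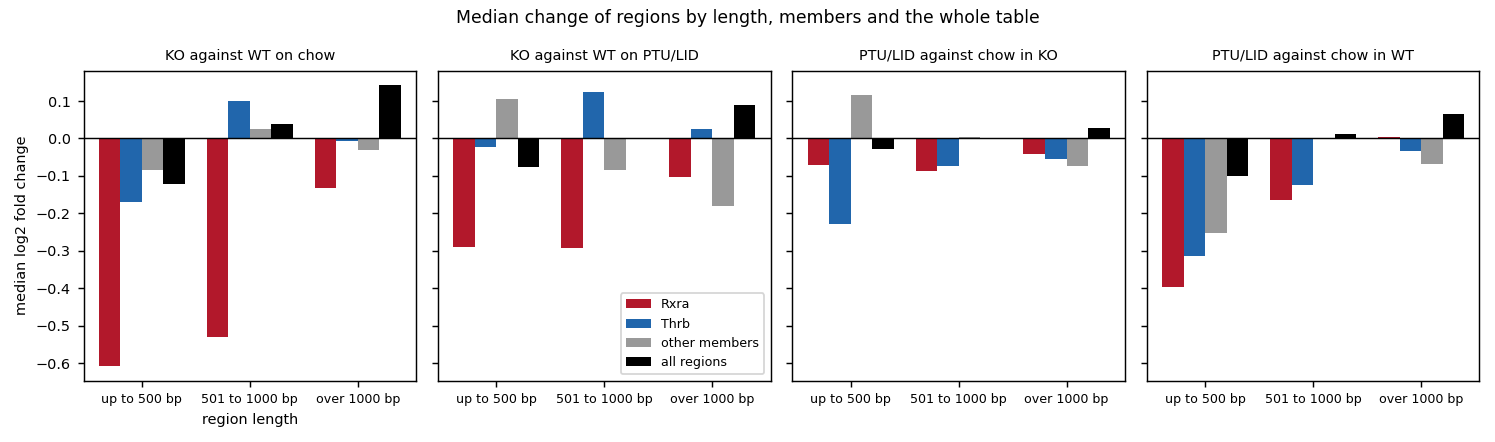
Median log2 fold change of regions (y axis) in 3 classes of length, for Rxra, Thrb, the other 8 genes together and all regions of the table, in 4 contrasts. The Rxra bars for regions up to 500 bp reach -0.61 in KO against WT on chow and -0.40 in PTU/LID against chow in WT, where all regions of that length have -0.12 and -0.10.

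The sum of endothelial marker levels was lower in KO. Taken singly, 1 of 4 markers passed as lower in KO averaged over diets, 1 on chow and 0 on PTU/LID. Of all genes 11.7%, 4.13% and 6.60% passed in these contrasts, in either direction. The 4 endothelial markers with regions, of 5 listed (Kdr had none), summed to 395.5 to 428 CPM in KO on PTU/LID and 405 to 431 CPM in KO on chow, against 446 to 463 CPM in WT on PTU/LID and 453.5 to 502.5 CPM in WT on chow. The 3 macrophage markers with regions, of 6 listed, summed to 32.3 to 46.3 CPM in KO on PTU/LID, 32.5 to 36.4 in KO on chow, 33.0 to 34.7 in WT on PTU/LID and 46.6 to 63.6 in WT on chow; the defining Kupffer cell markers Clec4f, Adgre1 and Marco had no region. The marker with regions for stellate cells (1 of 5) ranged from 1.52 to 4.19 CPM over all libraries and that for cholangiocytes (1 of 4) from 30.4 to 59.5 CPM, with overlapping groups. The 2 lymphocyte markers with regions, of 5, summed to 72.5 to 73.95 CPM in KO on PTU/LID, 103 to 139.5 in KO on chow, 48.9 to 66.3 in WT on PTU/LID and 96.8 to 100.4 in WT on chow. The part of these cells in the result was not tested. The chrM share also moved with the largest Rxra region. In WT this region had 209 to 258 CPM in the 3 libraries of higher chrM share and 347.5 to 383 CPM in the other 3. The former held 2965505 to 3466932 counts and the latter 4546159 to 5831372, so chrM share and depth cannot be told apart there. With a term for the set of libraries of higher chrM share, 9 Rxra regions passed in KO against WT averaged over diets, all lower. The share of all regions that passed with this term was not counted. Depth moved with genotype as well: the mean total was 6073347 counts in KO on PTU/LID and 6347161 in KO on chow, against 4123762 in WT on PTU/LID and 4087936 in WT on chow. KO PTU/LID library a, the shallowest KO library at 3719180 counts, belongs to the set of higher chrM share. Of the KO libraries it was the highest in Rxra regions 6, 34 and 37 (9.72, 21.99 and 4.86 CPM). It was the lowest in region 38 (3.33 CPM) and lay among the others in region 16 (4.09 CPM). Without it, 10 Rxra regions passed in KO against WT averaged over diets. The share of all regions that passed without it was not counted. The part of depth in the result was not tested.

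**Figure D5:**
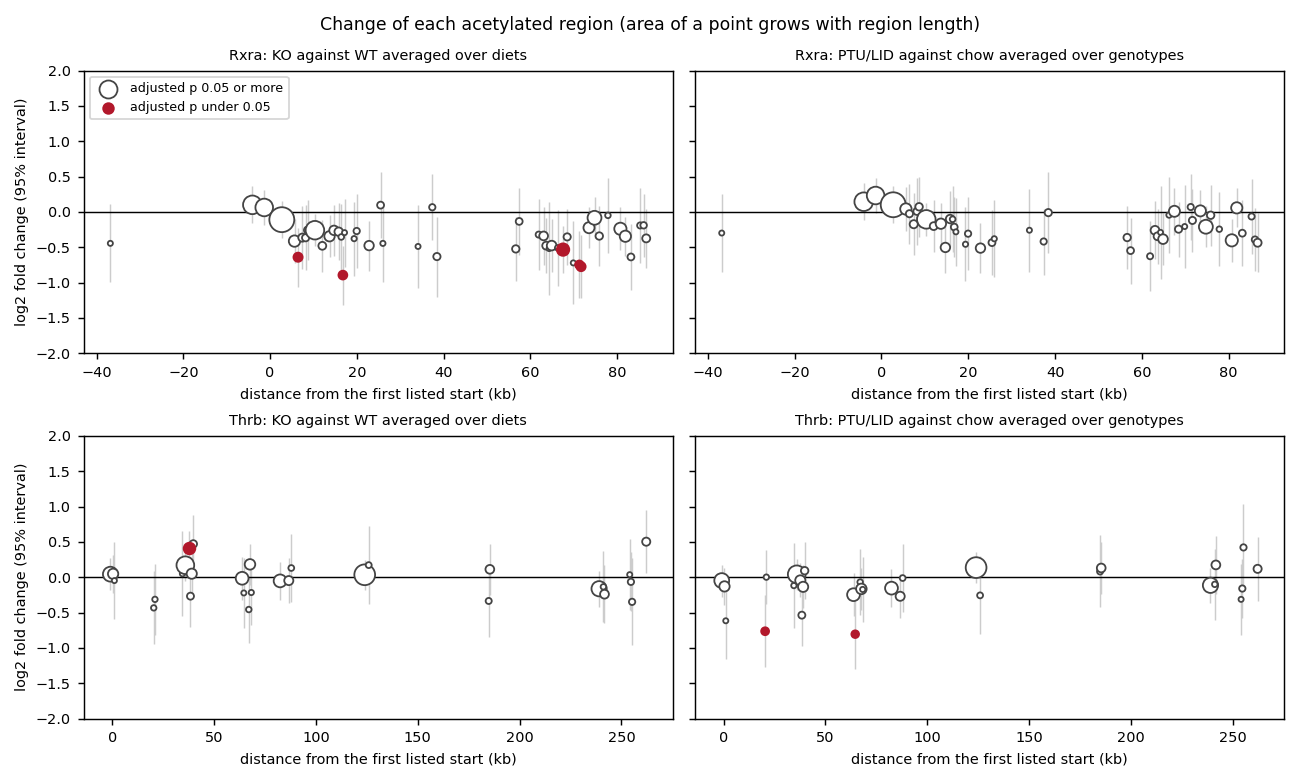
Log2 fold change with 95% interval of each Rxra region (top) and Thrb region (bottom) against the distance of its midpoint from the first listed start in kb, for KO against WT (left) and PTU/LID against chow (right), each averaged over the other factor; filled points have an adjusted p under 0.05. Rxra regions lie mostly below 0 on the left (44 of 48), while Thrb regions lie on both sides (16 of 30 below 0).

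Thrb showed no such lean: 16 of its 30 regions were lower in KO averaged over diets (median -0.031), and region 8 was higher. Region 8 (chr14:17698229-17699020), inside the gene and 37.7 kb past the first listed start, had 38.4, 41.0 and 39.5 CPM in KO on PTU/LID, 38.8, 36.8 and 44.9 CPM in KO on chow, 29.0, 26.7 and 31.8 CPM in WT on PTU/LID, and 32.3, 29.5 and 30.1 CPM in WT on chow. All 6 KO libraries exceeded all 6 WT libraries, and the log2 fold change was 0.42 ± 0.12 (adjusted p = 0.0234). The call was lost without KO PTU/LID library b, KO chow library c, WT PTU/LID library b or WT chow library b (adjusted p up to 0.0810). It was kept with RLE scaling factors, without the filter on low counts, without chrM regions, with either term for chrM share and by DESeq2. Within the libraries of higher chrM share, with only library a of each PTU/LID group, region 8 had a log2 fold change of 0.39. Its neighbours, regions 7 and 9, had 0.17 ± 0.11 and -0.27 ± 0.22 and did not pass. The strongest Thrb region, region 20 (chr14:17783264-17786564, 3301 bp), lay 124 kb past the first start with 126.8 ± 0.929 CPM in KO on PTU/LID, 114.4 ± 1.68 in KO on chow, 122.8 ± 3.29 in WT on PTU/LID and 112.5 ± 12.6 in WT on chow (SD, n = 3). Regions 1 and 2 at the first start, which also lie inside the gene LOC115488350, had 71.9 and 22.7 CPM over all libraries and log2 fold changes that did not pass in any contrast.

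In the diet contrast averaged over genotypes, 2 short Thrb regions were lower on PTU/LID. Region 13 (chr14:17725474-17725673) had 1.603 to 2.874 CPM in the 6 PTU/LID libraries and 3.27 to 4.75 CPM in the 6 chow libraries, with no overlap (log2 fold change -0.81 ± 0.25, adjusted p = 0.0262). Region 4 (chr14:17681233-17681460) had 1.72 to 4.78 CPM on PTU/LID and 2.75 to 8.24 CPM on chow, which overlap (-0.76 ± 0.25, adjusted p = 0.0430). They hold 8 to 33 counts a library; region 13 lost its call without any of 3 libraries, region 4 without any of 8, and both with a term for the chrM share (adjusted p up to 0.288) and by DESeq2.

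Both called Ncoa2 regions were lower on PTU/LID than on chow, with KO on chow the highest group in each. Region 3 (chr1:13242240-13242824) had 8.95, 15.9 and 11.1 CPM in KO on PTU/LID, 20.7, 18.1 and 16.7 CPM in KO on chow, 9.26, 8.40 and 8.42 CPM in WT on PTU/LID, and 11.1, 11.9 and 15.2 CPM in WT on chow (averaged over genotypes, -0.59 ± 0.17, adjusted p = 0.0167). The call was lost without WT chow library c (adjusted p = 0.0728). Region 6 (chr1:13312742-13313066) had 2.56, 4.003 and 4.81 CPM in KO on PTU/LID, 7.08, 7.26 and 9.48 CPM in KO on chow, 2.09, 3.66 and 2.46 CPM in WT on PTU/LID, and 5.07, 3.31 and 4.30 CPM in WT on chow. It passed in the diet contrast in KO (-1.02 ± 0.30, adjusted p = 0.0306) and averaged over genotypes (-0.81 ± 0.24, adjusted p = 0.0207); the first call was lost by DESeq2, with a term for the widest gap in chrM share and without any 1 of 5 libraries, and the second without any 1 of 3 (KO chow library c, WT PTU/LID library c or WT chow library a, adjusted p up to 0.0583). In KO against WT averaged over diets the same regions had 0.50 ± 0.17 (adjusted p = 0.0537) and 0.70 ± 0.24 (adjusted p = 0.0578), and 10 of the 12 Ncoa2 regions had a positive value. Region 12 (chr1:13373895-13374853), the strongest of Ncoa2, lies across the annotated edge of the gene, with its midpoint outside; it had 24.8 to 48.9 CPM over the 12 libraries and did not pass.

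The strongest regions of the remaining genes lay at gene ends or inside the genes and did not pass in any contrast. Ep300 region 2 (chr15:81585364-81587015), which covers its listed start, had 58.8, 71.4 and 75.1 CPM in KO on PTU/LID, 81.3, 68.1 and 73.4 CPM in KO on chow, 68.4, 75.4 and 104 CPM in WT on PTU/LID, and 72.5, 62.4 and 91.6 CPM in WT on chow. Ncoa3 region 9 (chr2:166034591-166036316) had 44.8 to 75.6 CPM over the 12 libraries, Thra region 1 (chr11:98741847-98742392) 8.74 to 14.4 CPM, and Med1 region 2 (chr11:98192830-98193926), over its listed start, 17.9 to 25.1 CPM. Crebbp region 2 (chr16:4214089-4214364), with its midpoint 269 bp outside the annotated gene, had 3.29 to 7.60 CPM. The single regions of Rxrb (chr17:34032329-34032799) and Ncoa1 (chr12:4477323-4477716) overlap a listed start each, with 6.27 to 10.5 and 4.75 to 12.4 CPM.

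Whether the regions of 1 gene moved together was tested by setting each region against the other regions of its gene (edgeR diffSpliceDGE, 45516 regions). For KO against WT averaged over diets, 0 of 110 member regions passed, against 0.798% of all regions, and 14 had an unadjusted p under 0.05; the lowest adjusted p was 0.117, for Rxra region 16. For PTU/LID against chow averaged over genotypes, 0 of 110 passed, against 1.75%, with 13 at an unadjusted p under 0.05 and a lowest adjusted p of 0.118, for Thrb region 4. By this test neither Thrb region 8 nor the called Rxra regions were shown to depart from the rest of their gene.

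The genes whose summed level was most like that of the receptors over the 12 libraries, by Pearson correlation of log2 CPM, were Eif1b (r = 0.863), Zfp433 (0.834) and Lmtk2 (0.818) for Thra, and Helb (0.887), Tmem218 (0.878) and Zc3h7a (0.870) for Thrb. They are the highest of about 11585 genes each over 12 points that share groups and library quality, and are given as a description. Thra and Thrb themselves had r = -0.078.

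Of 92 listed genes with a gene-level test, 17 were higher and 4 lower in KO than in WT averaged over diets, where 11.7% of all genes passed. On PTU/LID against chow averaged over genotypes 12 were higher and 11 lower, where 15.8% of all genes passed. Of the 6 genes of the corepressor complex, 3 passed in KO against WT, all higher, among them Tbl1xr1 and Tbl1x. Tbl1xr1, an exchange factor of the complex, averaged 273 ± 24.9 CPM in KO on PTU/LID, 302 ± 12.2 in KO on chow, 160 ± 12.1 in WT on PTU/LID and 203 ± 12.6 in WT on chow (log2 fold change 0.68 ± 0.074, adjusted p = 1.7e-06). Its relative Tbl1x averaged 72.1 ± 6.82 CPM in KO on PTU/LID, 53.4 ± 5.69 in KO on chow, 52.7 ± 3.75 in WT on PTU/LID and 40.6 ± 1.63 in WT on chow (0.42 ± 0.092, adjusted p = 0.00352). On PTU/LID, Tbl1x rose (0.40 ± 0.092, adjusted p = 0.00385) and Tbl1xr1 fell (-0.25 ± 0.074, adjusted p = 0.0222; lost in 11 of 21).

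Of 13 thyroid hormone response genes, 9 were higher in KO than in WT (median log2 fold change 0.31, all genes -0.017) and 6 were lower on PTU/LID than on chow (median -0.15, all genes -0.012), with none in the opposite direction; of all genes 11.7% and 15.8% passed in these contrasts, in either direction. Gpd2, the mitochondrial glycerol phosphate dehydrogenase, averaged 134 ± 23.6 CPM in KO on PTU/LID, 197 ± 9.75 in KO on chow, 74.1 ± 2.39 in WT on PTU/LID and 123 ± 11.7 in WT on chow (KO against WT 0.77 ± 0.088, adjusted p = 2.4e-06; PTU/LID against chow -0.64 ± 0.088, adjusted p = 1.6e-05). Thrsp (Spot 14), malic enzyme Me1 and glucose-6-phosphatase G6pc rose in KO by 0.66 ± 0.094, 0.60 ± 0.11 and 0.44 ± 0.078. Cyp7a1, which starts bile acid synthesis, and Idh3a, a subunit of isocitrate dehydrogenase, fell on PTU/LID (-0.83 ± 0.096 and -0.87 ± 0.17). Dio1, the activating deiodinase and a classical target of the hormone, averaged 47.9 ± 11.1 CPM in KO on PTU/LID, 294 ± 42.9 in KO on chow, 48.8 ± 15.5 in WT on PTU/LID and 187 ± 10.2 in WT on chow (-2.30 ± 0.13, adjusted p = 8.2e-10).

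Of 14 genes of thyroid hormone metabolism and transport, 5 were higher and 2 lower on PTU/LID, where 15.8% of all genes passed in either direction, and 2 were higher and 1 lower in KO, where 11.7% did. Besides Dio1, the transporter Slco1a1 fell (-1.12 ± 0.21), while Dio3, the inactivating deiodinase, and Ttr, the plasma carrier transthyretin, rose (0.86 ± 0.12 and 0.44 ± 0.065); Dio3 was measured in regions outside the gene alone. In KO, Slco1a4 was higher (0.22 ± 0.070, lost in 11 of 21 settings) and Slc7a8 lower (-0.50 ± 0.13, lost with regions inside the gene alone). Slco1a1 and Slco1a4 belong to a family of similar genes, and reads shared between copies cannot be told apart here.

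The counts of the remaining lists stand against 11.7% of all genes called in KO against WT and 15.8% in PTU/LID against chow, and no test set a list apart from other genes. Of 29 Mediator subunits, 0 passed in KO against WT, and on PTU/LID 3 were higher and 2 lower; Cdk19 (0.56 ± 0.079), Med18 (0.48 ± 0.093) and Med21 (0.29 ± 0.081) rose and Med27 fell (-0.46 ± 0.10), but without regions outside the gene Cdk19 had 0.068 and Med18 0.074, which did not pass, and Med21 had an adjusted p of 0.135. Of 14 nuclear receptors that pair with RXR, 2 were higher in KO, the xenobiotic receptor Nr1i2 (0.52 ± 0.12) and Ppard (0.37 ± 0.086), and 2 lower, the liver X receptors Nr1h3 and Nr1h2 (-0.34 ± 0.086 and -0.36 ± 0.10; Nr1h2 lost in 6 of 21 settings). On PTU/LID 3 were higher: Nr1i3, Pparg and Rara (0.42 ± 0.094, 0.27 ± 0.084 and 0.22 ± 0.069), of which Pparg was lost in 7 and Rara in 9 of 21 settings. Of 17 other coactivators, Ppargc1b rose and Smarcc1 fell in KO (0.42 ± 0.090 and -0.53 ± 0.13), and Trim24 fell on PTU/LID (-0.28 ± 0.083, lost in 6 of 21 settings).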

How the data were processed

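H3K27ac ChIP-seq of mouse liver gave 12 libraries in 4 groups of 3. The authors deposited whole-number counts of reads over 52645 regions shared by these libraries, 1 column a library. The submitters' processing notes name mm10 and, with no roles, bedtools 2.26.0, MACS2 2.1.1, Picard 2.8.1, Bowtie2 2.2.1 and bcl2fastq 2.17.1.14; the sources used here do not state how the shared regions were made or duplicates treated. The 4 input libraries are not analysed here.

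Regions were placed in or near protein-coding genes by a RefSeq gene table of the assembly of mm10. A region inside several genes counted for each, and gene counts are sums over regions. Tests used edgeR 4.0.16 in R 4.3.3: TMM factors, filterByExpr with a minimum count of 10 (52606 regions and 11586 genes tested), robust quasi-likelihood fits with 1 mean per group over all 12 libraries, 7 contrasts and Benjamini-Hochberg adjustment with a threshold of 0.05. CPM use the TMM factors of their level, so region and gene CPM differ slightly in scale. DESeq2 1.42.0 was an alternative. The tests were tried on simulated data. Groups share no library numbers, so there was no pairing to use.

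The members, lists and tests were chosen with earlier results of these data known. All 10 members are named, with every region that passed, the strongest region of each and those over a listed start. Of the other lists, at most 4 genes per list and averaged contrast are named, by adjusted p; the rule allowed this for all 7 contrasts, and the other 5 are not described for these lists. Some list genes that the rule would name are not reported here.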

Additional observations from a re-analysis of the deposited data

How the results depend on the processing

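The count of member genes past the threshold was 0 in all 7 contrasts under every setting run, except for KO against WT averaged over diets, where it was 1 with regions inside the gene alone (Ncoa2, log2 fold change 0.27, adjusted p = 0.0428) and ranged from 0 to 1 when single libraries were left out (Rxra without WT PTU/LID library a, -0.22, adjusted p = 0.0483). Outside the main fit and DESeq2, the share of all regions that passed was not counted. Counts of member regions rest on few libraries. When each library was left out in turn they ranged from 2 to 15 for KO against WT averaged over diets (6 in all libraries; 15 without KO PTU/LID library a), from 0 to 3 on chow (3), from 0 to 3 on PTU/LID (0; 3 without KO PTU/LID library a), from 2 to 8 for PTU/LID against chow averaged over genotypes (4; 8 without WT PTU/LID library a), from 0 to 2 in KO (1) and from 0 to 4 in WT (0; 4 without WT PTU/LID library a). Those of regions set against the rest of their gene ranged from 0 to 3 in the averaged diet contrast. A term for the library set at the widest gap in chrM share, which singles out KO chow library b, gave 2 for KO against WT averaged, 0 on chow and 0 for the diet in KO. DESeq2 gave 2 in the averaged diet contrast and 0 for the diet in KO. The following chrM settings were chosen after seeing the data. A term for the set at the next gap, 7 libraries of higher and 5 of lower share, gave 13, with 9 on chow, and 1 region apart from the rest of its gene for KO against WT averaged. The libraries of higher share were also fitted alone, as were those of lower share. The higher set holds only library a of each PTU/LID group. The lower set holds no KO chow library and only WT chow library c. Counts of calls within either set are therefore not given. Of 92 list genes, 23 passed in the averaged diet contrast, 14 with the later chrM term and 10 within the libraries of higher share; leaving out single libraries gave 16 to 27. The cause of these differences was not tested. Other scaling factors (RLE), no filter, leaving out chrM regions and fitting the compared groups alone kept every count within 1.5 times its value. No called value changed sign.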
